A study of Mus musculus with 19 samples.

Results

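In 5 of the 19 arrays of this sciatic nerve study the transcript of Isl1, a transcription factor of sensory neurons, lay below a log2 intensity of 8, and in the other 14 arrays it lay above 8. The arrays were divided by that value alone, read from the brightest Isl1 probe set on average. Arrays are named here by the initials of group and treatment (C control, D diabetic, V vehicle, R rosiglitazone) and the number that ends their title. Arrays DV706, DV707, DV709, CR715 and DR716 are called the low set, and the other 14 the high set. Isl1 was at 6.41 in array CR715, the low array nearest to the threshold, and at 9.47 in array DR719, the nearest high array. Because Isl1 chose the sets it is left out of all results. No test compares the 2 sets, and each difference between them is a description of these arrays.

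Every array held sciatic nerve RNA of DBA/2J mice, an inbred strain, and the submitters ran arrays from 5 mice of each group and left out 1 control array that did not pass their quality control. The 4 labelled groups were non-diabetic mice given vehicle (4 arrays, labelled as vehicle but with no treatment listed), diabetic mice given vehicle (5 arrays), non-diabetic mice given rosiglitazone (5 arrays) and diabetic mice given rosiglitazone (5 arrays). Diabetes was induced with streptozotocin, a toxin of the insulin-producing beta cells, and rosiglitazone is an insulin sensitiser that activates PPAR gamma. Age, sex, doses and the dissection of the nerve were not given in the sources used here. The low set held no array of control vehicle mice.

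The cell bodies of sensory neurons lie in dorsal root ganglia beside the spinal cord, each wrapped in satellite glia, and send their axons out through the spinal nerves that form the sciatic nerve. The nerve trunk itself holds axons, Schwann cells, endoneurial and epineurial fibroblasts, perineurial cells, vessels and immune cells, so that neuronal nuclei and most neuronal transcripts are outside it. Astrocytes, oligodendrocytes and meninges belong to the spinal cord and its coverings, and the roots pass through those coverings on the way to the ganglia.

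The 3 marker genes that did not choose the sets separated them completely. Scn10a, the sodium channel Nav1.8 of pain-sensing neurons, was at 5.05, 5.26, 3.82, 5.15 and 4.60 on arrays DV706, DV707, DV709, CR715 and DR716, against a lowest of 7.74, a median of 9.11 and a highest of 10.10 on the 14 high arrays. Calcb, which encodes a calcitonin gene-related peptide, was at 4.14, 3.70, 6.82, 5.33 and 4.87 on the low arrays in the same order, and between 10.15 and 12.30 with a median of 11.45 on the high arrays. Tac1, which encodes the precursor of substance P, was at 6.15, 5.65, 6.33, 5.52 and 4.90 on the low arrays, and between 10.48 and 12.38 with a median of 11.88 on the high arrays. In each of these genes every low array lay under every high array, and array DV709 was the highest low array for Calcb and Tac1 but the lowest for Scn10a. In these bulk samples, fewer cells of a type and less RNA per cell cannot be told apart.

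The label of sensory ganglion transcripts covers only a portion of what differed. Genes of the meninges and of central glia separated the arrays too, and several neuronal transcripts, Snap25 and Nefl among them, stayed well above background on the low arrays. The sets are therefore called by their Isl1 level and not by a tissue.

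The low arrays also differed from the high arrays in overall intensity, and 3 of them in RNA integrity. The median probe set intensity was 83.3 to 88.1 on the low arrays and 93.3 to 101.7 on the high arrays. Signal at the 3' end of Gapdh minus signal at its 5' end, a measure that is larger in degraded RNA, was 3.71, 4.38 and 1.75 on arrays DV706, DV707 and DR716, 1.24 and 1.23 on arrays DV709 and CR715, and 1.00 to 1.37 on the high arrays. The same measure for beta-actin was 2.73, 3.0 and 1.70 on arrays DV706, DV707 and DR716, and 0.47 to 1.31 on the other 16 arrays. The part of overall intensity in the differences was not tested. Values without the 3 arrays of poorer RNA are given for the counts of genes apart, some genes higher in the low set and the fat and muscle medians. Other list results include these 3 arrays unless stated.

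A gene was called apart where no array of one set lay inside the range of the other and the means differed by at least 1 on the log2 scale, that is 2-fold. Of 13459 genes tested, 520 were apart and higher in the high set (3.86%), and 41 were apart and higher in the low set (0.305%). The median difference, high minus low, was 2.65 over the 520 genes, -1.25 over the 41 and -0.05 over all genes tested. Centring each array on its median shifted the median over all genes to -0.22 and changed the counts to 453 and 112. Of the 520 genes, 93 differed by at least 4, and 217 had a low-set mean under the filter on low values, 5.54, where the size of the difference depends on the background of the array. Without arrays DV706, DV707 and DR716 the counts were 732 and 40, of which 502 and 12 genes were shared with the 520 and the 41. The count of genes higher in the low set was also 287 without array DV709 and 112 without array CR715. Fewer arrays make the condition of no overlap easier to meet, so these counts cannot be set directly against 520 and 41.

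The plot of differences by list shows the cell type and pathway lists side by side. Neuropeptide and synaptic lists had the largest share of tested genes apart, 66.7% each, and the perineurial, fibroblast, fat, muscle, endothelial, mast cell and myelin lists had 0. The meninges, satellite glia, oligodendrocyte and astrocyte lists had 45.5%, 27.8%, 22.2% and 20%. Over all 19 arrays no gene of any list was apart in the direction of the low set. Without array DV709, 3 endothelial, 2 mast cell, 2 fibroblast and 1 Schwann cell lineage genes were, and 5 myelin, 1 perineurial and 1 fibroblast genes were apart in the other direction. Of all genes 2.13% were then apart and higher in the low set and 4.92% in the high set, so single genes of a list are near that share. Leaving out DV710, CR715 or DR719, or centring the arrays, also gave single genes higher in the low set, in the mast cell, endothelial or nociceptor lists. The share over all genes was 0.342% to 0.832% in these settings.

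**Figure D1:**
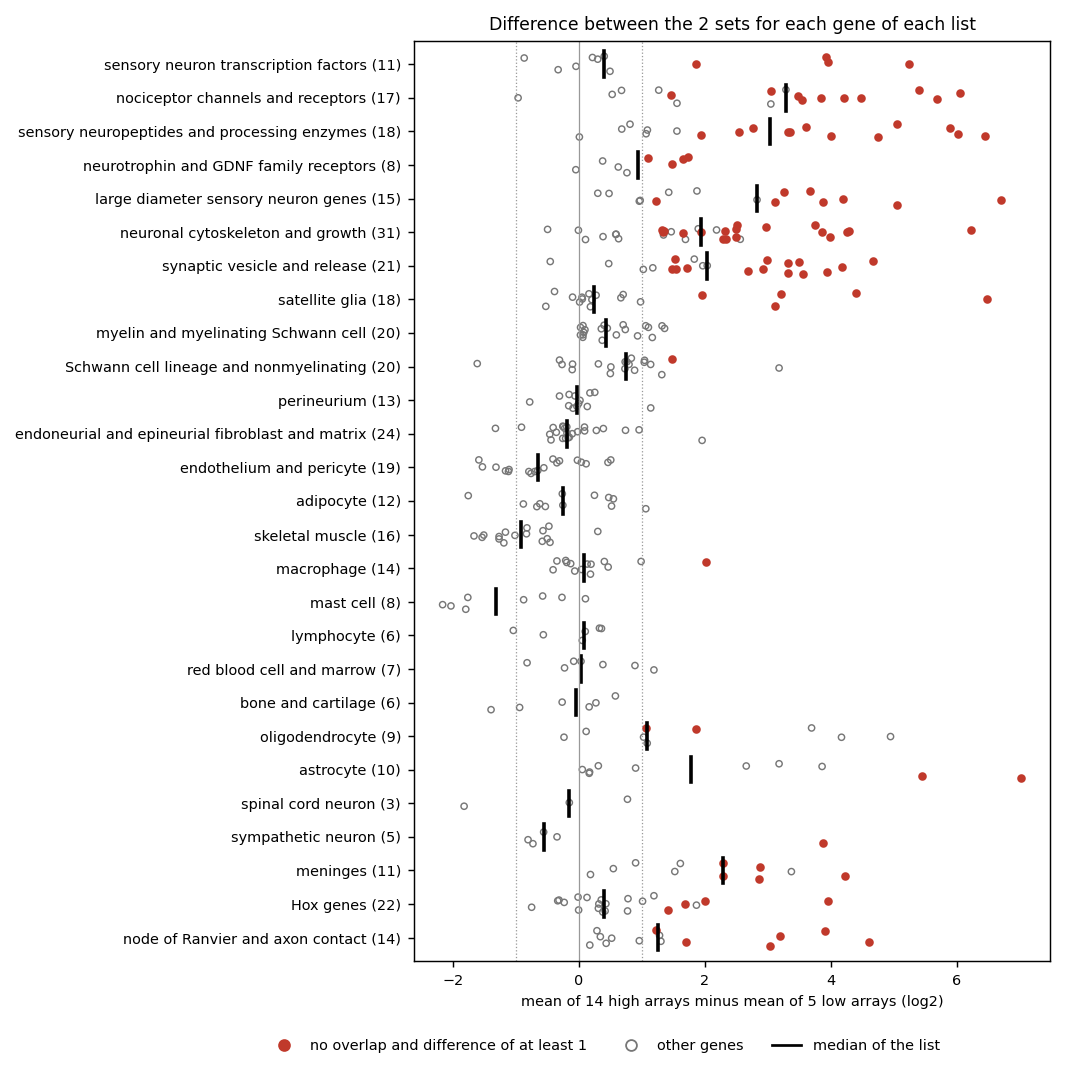
Mean of the 14 high arrays minus mean of the 5 low arrays (log2, x axis) for each tested gene of each list (y axis, number of tested genes in brackets). Filled points are genes apart between the sets, open points are other genes, black bars are list medians, and dotted lines mark differences of -1 and 1; the nociceptor and neuropeptide lists have medians of 3.29 and 3.04, and the perineurium and fibroblast lists of -0.03 and -0.19.

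Of the sensory neuron transcription factors, 4 of 11 tested were apart, all higher in the high set, and the list's median difference was 0.40. Prrxl1, also known as Drg11, a homeodomain factor of sensory and dorsal horn neurons, was at 6.06, 4.16, 5.47, 4.31 and 5.73 on arrays DV706, DV707, DV709, CR715 and DR716, and between 9.17 and 11.68 with a median of 10.35 on the high arrays. Pou4f1, the POU factor Brn3a that marks nearly all sensory neurons, was at 6.54, 4.68, 4.66, 5.40 and 7.26 on the low arrays, and between 8.23 and 10.95 with a median of 9.79 on the high arrays. Both showed a gap between the sets, and for Pou4f1 it was narrowest between array DR716 and the lowest high array. Hoxd1, a Hox gene of pain-sensing neurons, differed by 3.97, from 2.91 ± 0.15 (SD, n = 5) to 6.87 ± 0.62 (SD, n = 14), and Cux2, a homeobox gene, by 1.87, though it was not apart with the mean of its probe sets.

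The other transcription factors of this list did not separate the sets. Shox2 differed by -0.87, Ebf3 by -0.33, Ebf1 by -0.04, Maf by 0.22, Ebf2 by 0.30, Runx1 by 0.40 and Runx3 by 0.50, and each overlapped between the sets. Ebf1 and Ebf2, helix-loop-helix factors that fat and mesenchymal cells express too, were at 12.21 ± 0.18 and 11.12 ± 0.66 (SD, n = 5) on the low arrays. Tlx3, Insm1, Neurod1, Neurog1 and Pou4f3 lay under the filter on low values, of which Tlx3, a homeobox factor of sensory neurons, was at 4.64 ± 0.17 (SD, n = 5) and 5.27 ± 0.26 (SD, n = 14).

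Channels and receptors of pain-sensing neurons were apart in 10 of 17 tested genes, with a median difference of 3.29. Scn9a, the sodium channel Nav1.7, was at 5.24, 3.98, 4.48, 3.0 and 2.84 on arrays DV706, DV707, DV709, CR715 and DR716, and between 8.72 and 10.86 with a median of 9.97 on the high arrays. Scn11a, the sodium channel Nav1.9, was at 7.38, 4.41, 5.21, 5.47 and 5.82 on the low arrays, and between 10.36 and 12.07 with a median of 11.41 on the high arrays. P2rx3, an ATP-gated channel, was at 4.28, 6.0, 4.70, 4.77 and 4.33 on the low arrays, and between 8.85 and 11.27 with a median of 10.35 on the high arrays. The mean differences were 6.06, 5.69 and 5.41, and no low array came near a high one. Of the 3 P2rx3 probe sets, 2 differed in this direction.

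Among the other channels, Grik1, a kainate receptor subunit, differed by 4.48, Htr3a, the serotonin-gated channel, by 3.85, Trpa1, the irritant receptor, by 3.54, and Asic3 and Asic1, acid-sensing channels, by 3.48 and 3.06. Trpv1, the capsaicin receptor, differed by 3.29 but overlapped by a small margin, with array CR715 at 6.43 and the lowest high array at 6.40. Mrgpra3, an itch receptor, differed by 3.05 and also overlapped. Piezo2, the mechanosensitive channel of touch neurons, differed by only 0.53, from 11.93 ± 0.50 (SD, n = 5) to 12.46 ± 0.25 (SD, n = 14), and Cacna2d1, a calcium channel subunit, by 0.68. Hrh1, a histamine receptor, was the 1 gene of the list with a higher mean in the low set, by 0.96 in size, from 9.97 to 9.0. Trpm8 and Oprm1 lay under the filter in both sets.

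Neuropeptides and the proteins that process and pack them were apart in 12 of 18 tested genes, with a median difference of 3.04. Scg2, a secretogranin of dense-core vesicles, was at 4.26, 4.30, 3.65, 4.30 and 3.73 on arrays DV706, DV707, DV709, CR715 and DR716, and between 7.85 and 10.95 with a median of 10.07 on the high arrays. Adcyap1, which encodes the neuropeptide PACAP, was at 4.42, 3.63, 3.41, 3.58 and 4.00 on the low arrays, and between 7.02 and 10.10 with a median of 8.92 on the high arrays. For both genes the 5 low arrays lay close together, and the gap between the sets was wider than the spread among them. Vgf, Scg5, Chgb, Scg3 and Cartpt, further peptide precursors and granins, differed by 4.75, 4.01, 3.61, 3.35 and 3.32, Chga by 2.77, Pcsk1, a prohormone convertase, by 2.55, and Nmb by 1.95, though it was not apart with centring. Calcb and Tac1 differed by 6.45 and 6.02, although only 1 of the 2 Tac1 probe sets differed in this direction.

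Peptides known for nerve injury or for sympathetic neurons did not separate the sets. Gal, which encodes galanin, was at 6.72 ± 0.60 (SD, n = 5) and 8.28 ± 0.91 (SD, n = 14), and Npy, neuropeptide Y, at 6.97 ± 0.54 and 7.78 ± 0.65, both with overlap. Sst, somatostatin, differed by 0.68 with overlap. Cpe, a carboxypeptidase that also occurs outside neurons, was at 13.01 in both sets.

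Receptors of neurotrophins and GDNF family ligands differed less. Ntrk3, the receptor of neurotrophin-3, differed by 1.73, Ret, the signalling receptor of GDNF ligands, by 1.65, Ngfr, the p75 receptor that Schwann cells carry too, by 1.48, and Gfra4 by 1.10, and these 4 of 8 tested genes were apart. Ret was at 9.52, 9.84, 8.68, 9.60 and 8.80 on the low arrays and at 10.23 to 11.51 on the high arrays. Gfra2 had no overlap but differed by only 0.38, and Ntrk2 did not separate the sets, at -0.05. Gfra1 and Gfra3 differed by 0.63 and 0.76 with overlap. The median of the list was 0.93. Gfra4 was not apart with quantile normalization, with centring or without DV706 or DV707, and Ngfr was not with centring or the mean of all probe sets, so that centring left 2 of 8 apart.

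The list named for large-diameter sensory neurons, which carry touch and position sense, had 8 of 15 genes apart and a median difference of 2.83. Membership of this list does not show which neurons carried the transcripts. Slc17a6, the vesicular glutamate transporter VGLUT2, was at 2.69, 5.05, 4.32, 3.66 and 3.32 on the low arrays, and between 9.12 and 11.82 with a median of 10.58 on the high arrays, a mean difference of 6.70. Calb1, the calcium buffer calbindin, differed by 5.06, Scn1a, a sodium channel, by 4.20, Cntnap2, a juxtaparanodal adhesion protein, by 3.87, Kcnc1, a fast potassium channel, by 3.68, and Slc17a7, the transporter VGLUT1, by 3.27. Nefh, the heavy neurofilament subunit, was at 10.96, 9.35, 9.93, 7.76 and 8.56 on the low arrays and at 11.60 to 12.99 on the high arrays, so that array DV706 came within 1 log2 unit of the high set and array CR715 stood lowest. Pvalb, parvalbumin, which skeletal muscle expresses strongly, differed by 0.30, with array DR720 at 13.80 and array DV706 at 13.20.

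The neuronal cytoskeleton and growth list had 18 of 31 genes apart and a median difference of 1.95. Tubb3, the neuronal beta-tubulin, was at 6.36, 5.38, 7.56, 7.13 and 5.28 on arrays DV706, DV707, DV709, CR715 and DR716, and between 11.49 and 13.16 with a median of 12.73 on the high arrays. Its difference was 6.23. The RNA-binding proteins Elavl4, Elavl2 and Elavl3, which mark neurons, differed by 4.30, 4.25 and 3.86. The neurofilament genes Nefm and Nefl differed by 4.00 and 3.75 and the intermediate filament gene Prph by 2.97, though the latter was not apart with the mean of its probe sets.

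Other genes of this list stayed well above the filter on low values in both sets. Nefl was at 11.54, 10.55, 10.39, 8.58 and 9.10 on the low arrays and at 13.20 to 14.14 on the high arrays. Uchl1, a ubiquitin hydrolase of neurons, was at 11.19 ± 0.72 (SD, n = 5) against 13.52 ± 0.25 (SD, n = 14), Stmn2, a regulator of axonal microtubules, at 10.41 ± 0.74 against 12.70 ± 0.40, and Eno2, neuronal enolase, at 11.67 ± 0.45 against 13.03 ± 0.27. Thy1 did not separate the sets, at 12.15 in both, nor did Dpysl3, at 12.36 and 12.47, Tubb2b, at 12.79 and 13.18, or Kif5c, at 12.08 ± 1.19 and 12.68 ± 0.23. Gprin1 had no overlap in the other direction, but the difference was only -0.50. Gap43, a growth cone protein, differed by 1.34.

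Synaptic vesicle and release genes were apart in 14 of 21, with a median difference of 2.04. Snap25, a membrane fusion protein, was at 10.94, 10.18, 10.63, 8.48 and 9.50 on arrays DV706, DV707, DV709, CR715 and DR716, and between 12.76 and 13.62 with a median of 13.34 on the high arrays. Syn1, synapsin I, was at 7.60, 7.33, 6.17, 6.22 and 6.47 on the low arrays, and between 8.87 and 11.50 with a median of 10.49 on the high arrays. Rab3c, Sv2b, Syt1, Cadps and Syt4, which act in vesicle docking, filling and release, differed by 4.67, 4.18, 3.95, 3.57 and 3.32. Stx1a was the only gene of the list with a higher mean in the low set, by 0.45 in size and with overlap.

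The node of Ranvier and axon contact list, which mixes axonal and Schwann cell proteins, had 6 of 14 genes apart and a median difference of 1.25. Cntn2 and Cntn1, adhesion proteins of the axon and the paranode, differed by 4.62 and 3.91, Kcnq3, a nodal potassium channel, by 3.20, Nrg1, the axonal signal for myelination, by 3.04, Adam23 by 1.70 and Kcna1 by 1.22, the last not apart within diabetic vehicle mice. Ank3, Lgi4, Nrcam, Lgi1 and Nfasc, which Schwann cells also express or which act at the node, differed by 0.17 to 0.52, all with overlap. In each of these 5 genes the lowest array of the 19 was array CR715.

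**Figure D2:**
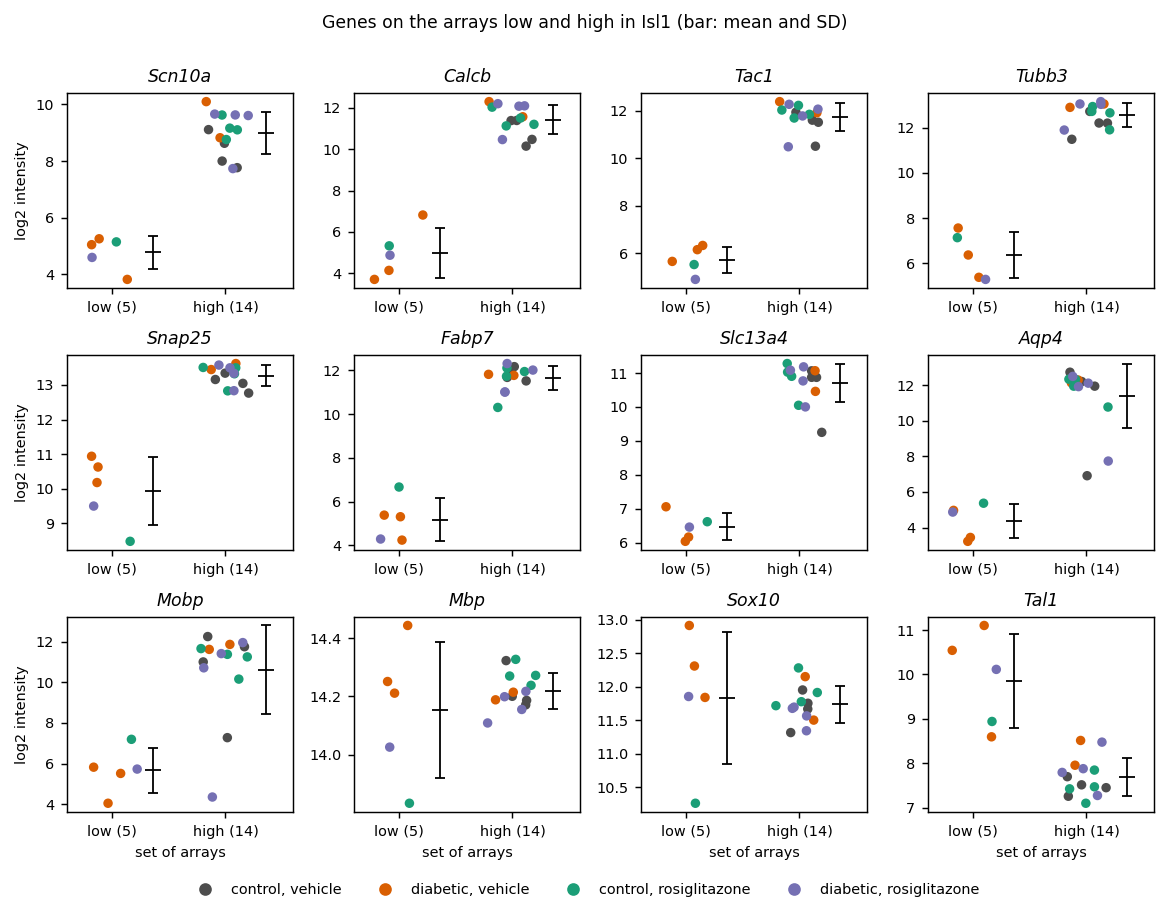
Log2 intensity (y axis) of 12 genes on the 5 low and 14 high arrays (x axis), coloured by labelled group, with the mean and SD of each set as bars; each panel has its own y range. Scn10a, Calcb, Tac1, Tubb3, Snap25, Fabp7 and Slc13a4 leave a gap between the sets, Aqp4 and Mobp are low on 2 high arrays, CV703 and DR720, Mbp and Sox10 overlap, and Tal1 is higher in the low set.

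The start regions of 3 of the genes that separated the sets are shown because they hold letters of elements known from neuronal and secretory genes. RE1 is the element bound by the repressor REST, which silences neuronal genes outside neurons, and its left part is TTCAGCACC. The cAMP response element, bound by CREB, is TGACGTCA. RefSeq start regions of GRCm38.p6, from 250 bases before to 50 after the start, were searched on both strands for these letters, which do not overlap in any of the regions shown. Each line gives 260 bases on the strand of the gene, ending 10 bases after the start, with matches in capitals. The match in Scg2 to the left part of RE1 is on the opposite strand and crosses the start. The positions are chr1:79440017-79440276 on the minus strand for Scg2, chrX:20920909-20921168 on the minus strand for Syn1 and chr7:142899986-142900245 on the minus strand for Th, the gene of tyrosine hydroxylase.
Scg2: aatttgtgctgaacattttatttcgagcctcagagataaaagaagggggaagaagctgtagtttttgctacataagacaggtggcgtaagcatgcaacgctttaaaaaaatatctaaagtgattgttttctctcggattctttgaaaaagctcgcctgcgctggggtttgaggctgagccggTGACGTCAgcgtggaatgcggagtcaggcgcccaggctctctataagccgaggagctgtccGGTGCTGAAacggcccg
Syn1: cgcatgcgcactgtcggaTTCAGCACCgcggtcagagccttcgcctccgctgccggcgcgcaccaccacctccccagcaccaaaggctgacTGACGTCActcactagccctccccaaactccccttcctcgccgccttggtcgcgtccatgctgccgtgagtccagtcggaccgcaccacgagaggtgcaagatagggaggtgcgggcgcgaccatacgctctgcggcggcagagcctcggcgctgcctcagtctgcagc
Th: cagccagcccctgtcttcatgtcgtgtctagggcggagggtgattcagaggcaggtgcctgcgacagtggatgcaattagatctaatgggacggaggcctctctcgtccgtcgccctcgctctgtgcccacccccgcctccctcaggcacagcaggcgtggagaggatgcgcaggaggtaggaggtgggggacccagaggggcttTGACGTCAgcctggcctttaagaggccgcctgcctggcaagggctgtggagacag

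Of the 520 genes higher in the high set, 394 had a RefSeq start region. The left part of RE1 was in 6 of them (1.52%), Dner, Lhfpl5, Nsg2, Scg2, Syn1 and Unc13a, against 0.481% of the 10801 tested genes with a start region and 0.433% of all 27025. The cAMP response element was in 13 of the 394 (3.30%), among them Cartpt, Chgb, Pcsk1, Scg2, Syn1 and Th, against 3.37% of the tested genes. Neither was in the start regions of 28 of the 41 genes higher in the low set. These matches describe letters in the windows, not binding.

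Satellite glia, which envelop sensory neuron cell bodies, share many transcripts with Schwann cells, and the genes of their list differed widely. Fabp7, the brain fatty acid-binding protein of satellite and radial glia, was at 5.31, 4.24, 5.38, 6.67 and 4.29 on arrays DV706, DV707, DV709, CR715 and DR716, and between 10.30 and 12.31 with a median of 11.79 on the high arrays, a difference of 6.48. Bcan, the matrix protein brevican, differed by 4.40, Kcnj10, the potassium channel Kir4.1 of satellite glia and astrocytes, by 3.22, Ptprz1, a receptor phosphatase, by 3.11, and Ttyh1 by 1.95. These 5 of 18 tested genes were apart, and the median of the list was 0.24. Kcnj10 was at most 9.12 on the low arrays and arrays CV703 and DR720 and at least 9.94 on the other 12. Kcnj3 had no overlap and a difference of 3.43 but lay under the filter on low values.

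The other satellite glia genes overlapped between the sets. Glul, glutamine synthetase, was at 13.57 ± 0.12 (SD, n = 5) and 13.58 ± 0.09 (SD, n = 14), Gja1, connexin 43, differed by 0.06, Ednrb by 0.05, Slc1a3, the glutamate transporter GLAST, by 0.27, and Cdh19 by 0.21. Apoe was at 11.48 and 12.13 on arrays DV706 and DV707 and at 13.03 to 13.51 on the other 3 low arrays, against 13.47 to 13.90 on the high arrays. Its difference was 0.98, and 0.38 without arrays DV706 and DV707.

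Myelin genes of Schwann cells overlapped between the sets, some of them only through array DV709. None of the 20 tested genes was apart, although all 20 had a higher mean in the high set, against 45.2% of all genes. The median was 0.43. Without array DV709, 5 of the 20 were apart and higher in the high set, against 4.92% of all genes, and the median was 0.58. Within diabetic vehicle mice the median was -0.11. Mbp, myelin basic protein, was at 14.44, 14.21, 14.25, 13.83 and 14.03 on arrays DV706, DV707, DV709, CR715 and DR716, and between 14.11 and 14.33 on the high arrays. Pmp22, a membrane protein of compact myelin, was at 14.08 ± 0.21 (SD, n = 5) and 14.15 ± 0.05 (SD, n = 14), and Egr2, the transcription factor that drives myelination, at 11.95 ± 0.54 and 11.98 ± 0.26. The larger differences were those of Gjb1, connexin 32, at 1.36, Gjc3 at 1.32 and Mag at 1.17, each with overlap.

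The low arrays differed more among themselves in myelin genes than the high arrays did. The level of the list, the mean of its genes after centring each on its mean over 19 arrays, was -1.07, -0.74 and -0.67 on arrays CR715, DR716 and DV707 and 0.10 and 0.35 on arrays DV706 and DV709, against -0.16 to 0.41 on the high arrays. Mag was at 6.76 on array CR715 and 9.41 on array DV709. Fa2h, which makes myelin lipids, was at 9.73 on array CR715 and at 12.20 on array DV706, outside the high range of 11.34 to 11.98 on both sides.

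Of the Schwann cell lineage genes 1 of 20 tested (5%) was apart, Ngfr, against 3.86% of all genes, so the count is near that share. Ngfr was not apart with centring or the mean of all probe sets. The median difference of the list was 0.75. Without array DV709, 3 of the 20 were apart and higher in the high set and 1 in the low set, against 4.92% and 2.13% of all genes. Array CR715 was again lowest, at a list level of -1.12. Sox10, the transcription factor of the glial lineage, was at 12.91, 12.31, 11.84, 10.26 and 11.85 on arrays DV706, DV707, DV709, CR715 and DR716, and between 11.32 and 12.28 on the high arrays. S100b, a calcium-binding protein of Schwann cells, differed by 1.14, Erbb3, the neuregulin receptor, by 0.74, and Ncam1 by 0.73 with no overlap. Scn7a, a sodium channel of nonmyelinating Schwann cells, did not separate the sets, at -0.10. Artn, artemin, a growth factor of sensory and sympathetic neurons, was higher in the low set, at 7.49 ± 1.38 against 5.87 ± 0.43, with array DV709 at 5.29 inside the high range.

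Genes of the sheaths around the nerve showed no common shift. The perineurium list had 0 of 13 genes apart and a median of -0.03, and the endoneurial and epineurial fibroblast list 0 of 24 and -0.19. Slc2a1, the glucose transporter GLUT1 of the perineurium, was at 13.38 ± 0.30 (SD, n = 5) and 13.40 ± 0.09 (SD, n = 14), and Col1a1, type I collagen, at 13.34 ± 0.17 and 13.32 ± 0.18. Ntn4 was higher in the low set by 0.78 in size and Cxadr in the high set by 1.14, both with overlap.

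Array DV709 stood apart within the low set in these sheath genes. The perineurium level was 0.71 on array DV709, -0.37 to -0.07 on the other 4 low arrays and -0.16 to 0.24 on the high arrays. Perp and Cldn1, junction proteins of barrier cells, were at 13.17 and 12.65 on array DV709 and at 11.26 to 12.23 and 11.23 to 11.95 on the other low arrays. Dpt, dermatopontin of the outer connective tissue, was at 8.08 on array DV709 and at 12.60 to 13.13 on the others, and Pi16, a marker of adventitial fibroblasts, at 10.98 against 12.53 to 13.66. Adipoq, the fat cell hormone adiponectin, was at 5.48 on array DV709, under its lowest value on any high array, 8.04.

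Fat and muscle genes varied widely in both sets and did not separate them. The adipocyte level ran from -3.97 on array DV709 to 2.52 on array CR715 in the low set and from -2.73 to 1.41 in the high set, and 0 of 12 genes were apart, with a median of -0.26. The skeletal muscle level ran from -2.31 to 2.67 in the low set and from -2.50 to 3.87 in the high set, with 0 of 16 genes apart and a median of -0.92. Within the diabetic vehicle group those medians were 1.04 and 0.07, the opposite sign. Without arrays DV706, DV707 and DR716 they were 0.67 and -0.37.

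Meningeal genes separated the sets in 5 of 11 tested members, with a median difference of 2.28. Slc13a4, a sulfate transporter of the meninges, was at 6.05, 7.06, 6.17, 6.62 and 6.46 on arrays DV706, DV707, DV709, CR715 and DR716, and between 9.25 and 11.28 with a median of 10.89 on the high arrays. Ptgds, prostaglandin D2 synthase of the arachnoid, was at 11.71, 10.74, 13.34, 11.70 and 11.27 on the low arrays and between 14.58 and 14.68 on the high arrays. Aldh1a2, a retinoic acid-making enzyme of the meninges, was at 9.08, 9.05, 4.99, 9.34 and 8.94 on the low arrays and between 10.25 and 11.62 on the high arrays. Each left a gap between the sets, and array DV709 was the highest low array for Ptgds and by far the lowest for Aldh1a2.

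Igf2, a growth factor that meninges make, differed by 2.29 and Slc22a6, an organic anion transporter, by 2.28. Slc6a13, a GABA transporter, and the connexin genes Gjb2 and Gjb6 differed by 1.61, 1.53 and 3.38 but overlapped, and in each of the 3 the low array inside the high range was array DV709, joined by array DV706 for Gjb2. Foxc1 and Foxd1 differed by 0.55 and 0.19. Zic1 and Zic2, zinc finger factors of the dorsal nervous system and meninges, belonged to no list but were among the 20 largest differences, at 6.51 and 6.97. Zic1 was at 5.72, 5.0, 2.32, 5.83 and 6.53 on the low arrays and between 10.83 and 11.90 on the high arrays.

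Genes of central glia separated the low arrays from 12 of the high arrays, while high arrays CV703 and DR720 were close to the low set for many of them. Aqp4, the water channel of astrocytes, had the largest difference of all, 7.03, with 4.97, 3.45, 3.23, 5.37 and 4.87 on arrays DV706, DV707, DV709, CR715 and DR716. It was at 6.91 and 7.73 on arrays CV703 and DR720, and at 10.76 to 12.72 on the other 12 high arrays. Mlc1, a membrane protein of astrocyte endfeet, was likewise at 4.46 to 5.30 on the low arrays, at 7.03 and 8.17 on arrays CV703 and DR720, and up to 11.94 on the rest. Of the astrocyte list 2 of 10 genes were apart, Aqp4 and Aldoc, the brain aldolase, which differed by 5.44, and the median was 1.78.

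Of the oligodendrocyte list 2 of 9 were apart, Gpr37 at 1.86 and Cldn11 at 1.06, with a median of 1.09. Neither was apart once arrays were centred on their medians, Gpr37 was not with quantile normalization, and Cldn11 was not without array CR715 or within diabetic vehicle mice. Without arrays CV703 and DR720, 6 of the 9 oligodendrocyte and 5 of the 10 astrocyte genes were apart, where the share over all genes was 4.22%. These 2 arrays were picked after their low values for such genes were seen. The higher counts follow from that choice and are only a description. Mobp, a myelin protein of oligodendrocytes, was at 5.83, 4.05, 5.52, 7.2 and 5.73 on the low arrays, at 7.28 and 4.36 on arrays CV703 and DR720, and at 10.16 to 12.25 on the other 12. Mog and Ermn, further oligodendrocyte genes, were at 3.6 and 3.67 on array CV703 and 3.47 and 3.11 on array DR720, against medians of 9.06 and 8.39 over the high set. Gfap, an intermediate filament of astrocytes and nonmyelinating Schwann cells, was at 8.54 and 7.54 on these arrays, inside the low range of 6.95 to 9.56, and at 11.64 to 12.36 on the other 12. In these 4 genes arrays CV703 and DR720 lay within the range of the low arrays or next to it, and far from the other 12.

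This split of the high set was chosen after its values were seen. When the 12 other high arrays were set against the 5 low arrays with CV703 and DR720, 43 genes were apart (0.319%), and 29 of the 43 were not apart between the low and high sets. The joint level of the oligodendrocyte and astrocyte lists, over 19 genes, was -1.12 and -1.44 on arrays CV703 and DR720, -1.74 to -1.52 on the low arrays and 0.30 to 1.36 on the other 12. The sensory neuron level, over the 46 tested genes of the transcription factor, channel and peptide lists, was 0.62 and 0.89 on arrays CV703 and DR720, in the middle of the high range. Leaving out arrays CV703 and DR720 raised the genes apart between the sets to 568 and 46. No overlap is easier to meet with fewer arrays.

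**Figure D3:**
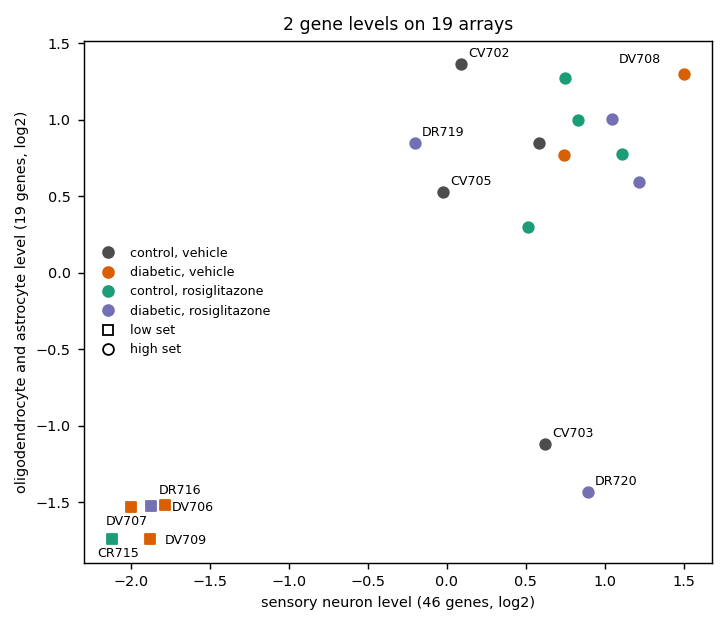
Sensory neuron level (x axis, mean over 46 genes of log2 deviations from the gene mean) against the oligodendrocyte and astrocyte level (y axis, 19 genes) for the 19 arrays, coloured by labelled group, squares for the low and circles for the high set. The 5 low arrays lie below -1.5 on both axes, arrays CV703 and DR720 combine sensory levels of 0.62 and 0.89 with glial levels of -1.12 and -1.44, and the other 12 lie above 0.30 on the y axis.

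Neurons of other kinds gave few differences. Of 13 spinal cord neuron genes with a probe set, 10 lay under the filter, among them Chat, Slc18a3 and Mnx1, genes of motor neurons, with Chat at 3.97 ± 0.23 (SD, n = 5) and 3.53 ± 0.17 (SD, n = 14). The 3 tested, Lbx1, Slc32a1 and Grin2b, overlapped between the sets. Of the sympathetic list 1 of 5 tested genes was apart, Th, the rate-limiting enzyme of catecholamine synthesis, which some touch neurons of the ganglia express too. Th was at 5.28, 4.38, 5.18, 4.57 and 5.14 on the low arrays and at 6.41 to 10.84 with a median of 9.05 on the high arrays. Slc6a2, Slc18a2, Hand2 and Ddc had higher means in the low set, by 0.35 to 0.81 in size and with overlap, and Dbh, which completes noradrenaline synthesis, lay under the filter.

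Hox genes, which record position along the body axis, were apart in 4 of 22 tested members, with a median difference of 0.40. Besides Hoxd1 these were Hoxb5, Hoxb9 and Hoxb2, at 2.01, 1.69 and 1.41. Without arrays DV706 and DV707, 7 of the 22 were apart and higher in the high set, against 4.85% of all genes. Within diabetic vehicle mice Hoxb2 was not apart. Hoxb5 was at 8.42, 8.40, 7.38, 6.72 and 7.47 on arrays DV706, DV707, DV709, CR715 and DR716 and at 8.6 to 10.46 on the high arrays, a gap of under 0.2 to arrays DV706 and DV707. Genes of the lumbar and limb level overlapped, with Hoxc10 differing by -0.23, Hoxd10 at 8.84 ± 0.92 (SD, n = 5) and 10.03 ± 0.61 (SD, n = 14), and Hoxa10 at 10.86 in both sets.

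Macrophage genes did not separate the sets as a list, with 1 of 14 tested genes (7.14%) apart, against 3.86% of all genes. The median of the list was 0.09, which became -0.09 when arrays were centred on their medians. The 1 gene apart was Cx3cr1, the fractalkine receptor, at 6.35, 6.0, 7.99, 7.02 and 7.49 on the low arrays and 8.26 to 9.53 on the high arrays. Cd68, Adgre1 and Csf1r, pan-macrophage genes, differed by 0.13, -0.13 and -0.35 with overlap. Lymphocyte, red blood cell and bone lists had 0 genes apart.

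**Figure D4:**
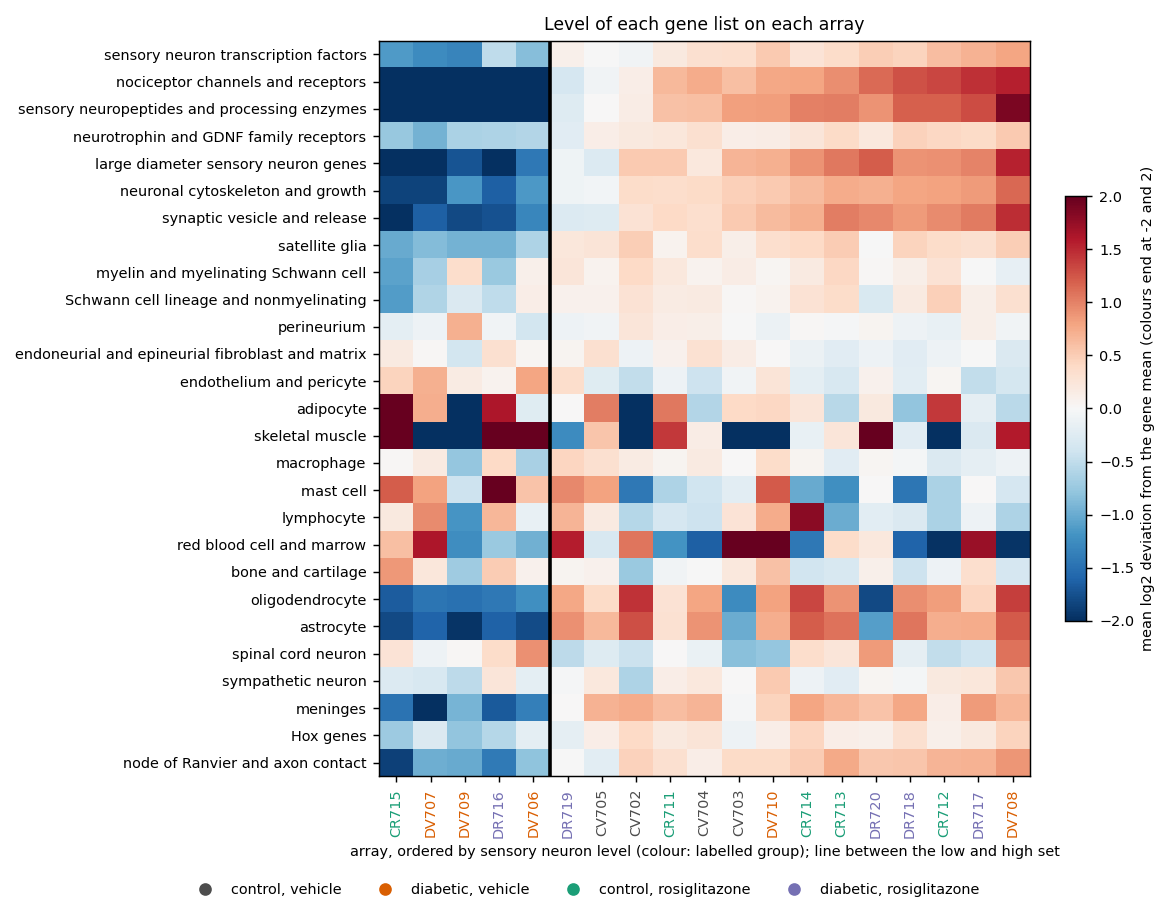
Level of each gene list (rows) on each array (columns, ordered by the sensory neuron level, number coloured by labelled group), as the mean log2 deviation of its genes from their mean over 19 arrays, on a colour scale from -2 to 2. Left of the line are the 5 low arrays, with sensory neuron, neuronal cytoskeleton, synaptic, meningeal and central glial lists below their means. There the spinal cord neuron list ran from -0.10 to 0.91 and the sympathetic list from -0.53 to 0.24. Fat, muscle and blood lists vary on both sides.

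The 41 genes higher in the low set differed less than the 520, and several of the largest differences among them were in genes known from endothelium. C1qtnf9, a secreted protein related to adiponectin, had the largest difference, -2.30, and was at 10.27, 10.21, 8.09, 8.73 and 8.66 on arrays DV706, DV707, DV709, CR715 and DR716, against 5.35 to 7.91 with a median of 7.04 on the high arrays. Tal1, a transcription factor of endothelial and blood cells, was at 11.10, 10.54, 8.6, 8.94 and 10.11 on the low arrays and at 7.10 to 8.52 with a median of 7.61 on the high arrays. Adgrf5, an adhesion receptor of endothelium, was at 12.55, 12.33, 10.86, 10.75 and 11.10 on the low arrays and at 9.50 to 10.68 on the high arrays. In all 3 genes arrays DV706 and DV707 were the highest of the 19. Closest to the high set were arrays DV709 and CR715 for Tal1 and Adgrf5, and arrays DV709 and DR716 for C1qtnf9.

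Dll4, a Notch ligand of arteries and sprouting vessels, differed by -1.31, She by -1.66, Arap3 by -1.31, Cdh13, T-cadherin, by -1.47, and Klhl4 by -1.43. Others among the 20 largest were not vessel genes, such as the keratin gene Krt20 at -1.74, the potassium channel genes Kcnq1 at -1.48 and Kcnk6 at -1.26, the small nucleolar RNA gene Snord104 at -1.56 and the interleukin-2 receptor gene Il2ra at -1.27. For 25 of the 41 genes the 2 highest arrays were DV706 and DV707, those with the largest Gapdh 3' minus 5' differences. Without those 2 arrays 19 of the 41 were still apart, against 508 of the 520. Without those 2 and DR716, the arrays of poorer RNA, Adgrf5, Arap3, Cdh13, Klhl4, Il2ra, Kcnk6, Kcnq1 and Snord104 were no longer apart. C1qtnf9, Tal1, Dll4, She and Krt20 still were. Leaving out arrays cannot make sets overlap that did not, so these calls were lost only because the means then differed by less than 1. The median difference was -1.25 over the 41 and 2.65 over the 520, so the 41 lay nearer to that limit.

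Endothelial and pericyte genes leaned the same way without separating the sets, 15 of 19 having a higher mean in the low set with a median of -0.65. Of all genes tested, 45.2% had a higher mean in the high set, so most genes leaned to the low set. Vwf, von Willebrand factor, was at 13.12, 12.87, 11.24, 11.25 and 12.11 on arrays DV706, DV707, DV709, CR715 and DR716 and at 9.95 to 11.88 on the high arrays, so that arrays DV709 and CR715 fell inside the high range. Erg, an endothelial transcription factor, differed by -1.59, Plvap, of fenestrated vessels, by -1.53, and Tek, the angiopoietin receptor, by -1.11, each with overlap. Cdh5, Cldn5 and Rgs5, genes of endothelial junctions and pericytes, differed by 0.04, 0.12 and -0.02. The level of the list was 0.79 and 0.71 on arrays DV706 and DV707, 0.07 to 0.44 on the other low arrays, and -0.50 to 0.35 on the high arrays.

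Mast cell genes showed the lowest median of all lists, -1.32, with 0 of 8 apart. Cpa3, a mast cell protease, was at 10.04 to 12.94 on the low arrays and at 8.52 to 11.45 on the high arrays, and Hdc, which makes histamine, was at 9.56 ± 1.49 (SD, n = 5) and 7.40 ± 0.81 (SD, n = 14). In both genes array DV709 was inside the high range and array DR716 was the highest. Within the diabetic vehicle group, which holds array DV709, the list's median was -0.05.

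Among the 14 high arrays the separating genes varied together. The sensory neuron level ran from -0.20 on array DR719 to 1.5 on array DV708, and the lowest high array was DR719 for 193 of the 520 genes and CV705 for 177. Over these 14 arrays 322 of the 520 genes (61.9%) had a Pearson correlation above 0.8 with the sensory neuron level, whose own genes are counted too, against 727 of all 13459 genes (5.40%). With the oligodendrocyte and astrocyte level 14 of the 520 (2.69%) had such a correlation, against 80 of all genes (0.594%). Scn10a, for one, was lowest at 7.74 and highest at 10.10 within the high set.

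The 10 genes most like the sensory neuron level over the 14 high arrays had correlations from 0.974 to 0.985. They were Tmem151b, at 0.985, Add2, the cytoskeletal protein beta-adducin, at 0.983, Scn9a at 0.981, Ralyl, St8sia1, a ganglioside sialyltransferase, Tmem74, Slc17a6, Scn11a, Crmp1 and Fgf13. Scn9a and Scn11a are members of the level itself. All 10 were apart between the sets. The 14 arrays share tissue and processing, and the correlations are given as a description.

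The sets were compared with the labels to ask whether the low arrays gathered in a group. The low set held 0 of 4 control vehicle arrays, 3 of 5 diabetic vehicle arrays, 1 of 5 control rosiglitazone arrays and 1 of 5 diabetic rosiglitazone arrays. Over the 4 groups the two-sided Fisher's exact test gave p = 0.2905, for 4 of 10 diabetic against 1 of 9 control arrays it gave p = 0.3034, and for 2 of 10 rosiglitazone against 3 of 9 vehicle arrays p = 0.6285. Adjusted over these 3 tests the exact p-values were 0.4551, 0.4551 and 0.6285. With so few arrays these tests do not show that the groups were alike.

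The fitted changes between labelled groups moved with the uneven spread of the low arrays. In the limma fit of diabetes under vehicle of the 4 groups, 517 of the 520 genes had a lower mean in diabetic mice, with a median change of -1.06 against 0.03 over all genes. With a term for the 2 sets in the fit, 462 of the 520 were higher in diabetic mice and the median was 0.76, and without the 5 low arrays it was 0.82. For rosiglitazone in diabetic mice all 520 were higher and the median was 0.88 in the first fit, while 418 were lower with the term, at a median of -0.26, and the median was -0.36 without the low arrays. Without arrays DV706 and DV707 alone the medians were -0.23 for diabetes and 0.07 for rosiglitazone. The genes were chosen on the same arrays, so their direction in the first fit follows from where the low arrays lie and is not evidence on diabetes or treatment. Both comparisons share the diabetic vehicle arrays.

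Calcb is an example. Its fitted change in diabetes was -3.14 (SE 1.90) with the labelled groups alone and 0.89 (SE 0.60) with the term for the sets, and Tac1 went from -2.90 to 0.93 and Scn10a from -1.77 to 0.93. Without the 5 low arrays the diabetic vehicle group is left with arrays DV708 and DV710, of which DV708 had the highest sensory neuron level of all 19.

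No gene passed an adjusted p of 0.05 in either comparison (0% of 13460), by limma with Benjamini-Hochberg adjustment, while 2439 genes (18.1%) had an unadjusted p under 0.05 for diabetes and 1305 (9.7%) for rosiglitazone. Of the 520 genes, 40 (7.69%) and 10 (1.92%) were among these, and of the 41 genes 25 (61.0%) and 8 (19.5%). All these genes were chosen on the same arrays. Their p-values in this fit therefore follow where the low arrays lie and are not evidence on diabetes or treatment. Without arrays DV706 and DV707, 5 of the 41 (12.2%) had such a p for diabetes, against 4.50% of all genes. With the term for the sets, 224 of the 520 (43.1%) had an unadjusted p under 0.05 for diabetes, against 11.7% of all genes. Without the low arrays 189 (36.3%) did, against 11.4% of all genes. The 520 genes were chosen for the difference that the term takes up, and they vary together over the high arrays. They are thus not separate observations, and these shares are not evidence on diabetes. Without array DV710, 4 genes passed for diabetes, with a smallest adjusted p of 0.0498 by limma. Of the genes apart, those with the smallest p for diabetes were Adgrf5, Kank3 and Mmrn2, the last an endothelial matrix protein, all of the 41. They changed by 1.58 (SE 0.42), 1.10 (SE 0.30) and 1.33 (SE 0.36), each with an adjusted p of 0.2382 by limma, and by 0.93, 0.62 and 0.81 with the term for the sets. For rosiglitazone they were Rogdi, at 0.99 (SE 0.34), Fgd5, an endothelial exchange factor, at -0.76 (SE 0.28), and Saa2, an acute phase protein, at 1.34 (SE 0.50), each with an adjusted p of 0.4975 by limma. With the term these were 0.54, -0.39 and 0.72. Of these 6 genes only Saa2 was still apart between the sets without arrays DV706 and DV707. The means of the others then differed by less than 1, still without overlap.

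**Figure D5:**
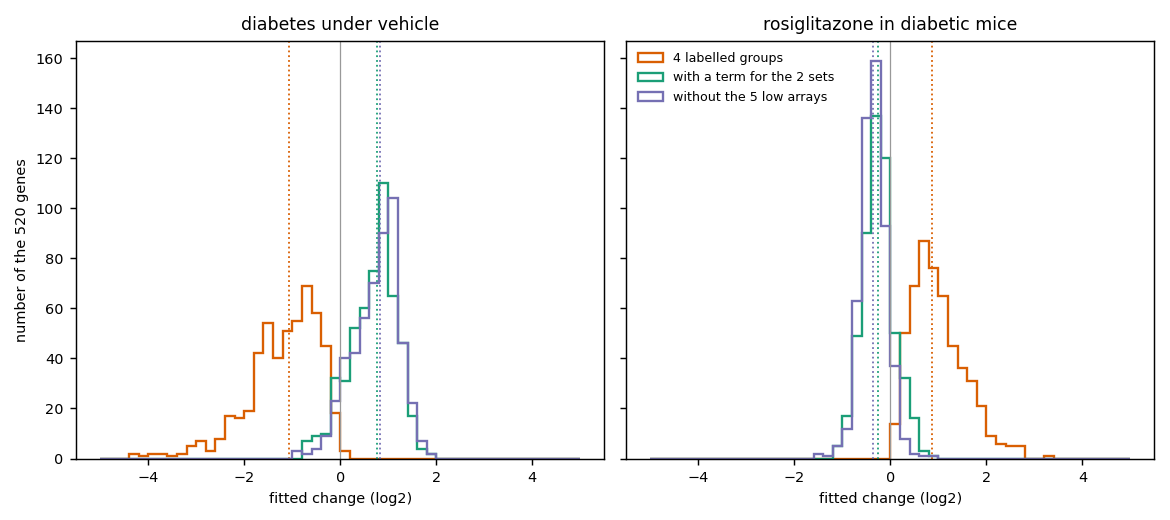
Number (y axis) of the 520 genes by fitted change (x axis, log2) for diabetes under vehicle (left) and rosiglitazone in diabetic mice (right), with the 4 labelled groups alone, with a term for the 2 sets and without the 5 low arrays; dotted lines are medians. On the left the median goes from -1.06 to 0.76 and 0.82, on the right from 0.88 to -0.26 and -0.36.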

How the data were processed

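RNA of mouse sciatic nerve was amplified before labelling with biotin, per the labels' protocols, and hybridised to 19 Affymetrix mouse arrays. The deposited values are linear intensities of 45101 probe sets, summarised by RMA per the submitters' processing notes, which is usually left on a log scale. How they were made linear was not stated. RMA includes background correction and normalization across arrays, which reduces a shift of all genes between arrays. A shift remained in the deposited values, with median intensities of 83.3 to 88.1 on the low and 93.3 to 101.7 on the high arrays. Intensities were put on the log2 scale. Of the probe sets, 34945 had 1 gene symbol, 932 had several and 9160 had none, and 64 were controls. Each of 18193 genes was read from the probe set with its highest mean. The 13460 genes above the 40th percentile of means (log2 5.54) were tested, and 13459 remained without Isl1.

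The sets were described by means, SDs and overlap. Labelled groups were compared with limma 3.58.1 in R 4.3.3 (lmFit and eBayes on 4 group means, Benjamini-Hochberg adjustment at 0.05), and set membership with two-sided Fisher's exact tests in scipy 1.17.1. Both gene callers were run on simulated data in which genes varied independently. For the sets the simulated shift was well above the difference required for a call. These runs do not show how the callers treat smaller differences or genes that vary together. The number of arrays limits the precision. Genes of lists were named where they had 1 of up to 6 largest or 3 smallest differences of their list, and otherwise where they were among the 20 largest differences in each direction, the 10 most correlated or the 3 smallest p of a comparison. A further 52 of the 211 genes named were chosen after their values were seen. The members and the lists were chosen with earlier results of these data known. Alternatives covered the filter, the probe set rule, scaling, an offset, left-out arrays and a term for the sets. Start regions came from RefSeq, assembly GRCm38.p6.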

Additional observations from a re-analysis of the deposited data

Results flagged for a closer look

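Within the 5 low arrays 1 array stood far from the other 4 in 1 of 29 list levels and in 15 of the 211 genes named, where chance gives about 1 in 20 groups. Most of these were array DV709. Its perineurium level was 0.71. It was far below the other low arrays for Adipoq at 5.48, Dpt at 8.08, Aldh1a2 at 4.99, Cadps at 4.41, Ebf1 at 11.90, Ebf3 at 8.90, Ednrb at 9.41 and Tek at 11.01, and far above them for Foxc1 at 11.96 and Slc2a1 at 13.90.

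The other arrays gave fewer such values. Array DV707 stood apart for P2rx3 at 6.0 and Dbh at 5.96, array DV706 for Zic2 at 4.28, array CR715 for Stx1a at 9.50 and array DR716 for Slc17a7 at 6.30. Of 15 groups of array measures, 2 held such an array: within the diabetic rosiglitazone group array DR716 had 3' minus 5' differences of 1.75 for Gapdh and 1.70 for beta-actin.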

How the results depend on the processing

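No paired analysis was possible because the array numbers are not shared between groups. The 520 genes higher in the high set (3.86%) became 323 of 10631 (3.04%) with the filter at the 60th percentile, all 323 among the 520. With the mean of all probe sets they became 441 of 12765 (3.45%), of which 401 were among the 520. They became 785 (5.83%) within the 3 groups that hold both sets, 1000 (7.43%) within diabetic vehicle mice, and 520 to 662 with 1 array left out. The 41 genes higher in the low set (0.305%) became 25 (0.235%) with the filter at the 60th percentile and 26 (0.204%) with the mean of all probe sets. They became 63 (0.468%) with quantile normalization, 112 (0.832%) with centring and 2 (0.0149%) with a difference of at least 2. Within the 3 groups they were 73 (0.542%) and within diabetic vehicle mice 318 (2.36%). With 1 array left out they numbered 35 to 287. They were 287 without array DV709 and 112 without array CR715. A rise is favoured wherever fewer arrays are compared, because the condition of no overlap is then easier to meet. Within diabetic vehicle mice 1869 of the 13459 genes had no overlap and were higher in the high set, and 2684 in the low set. Over all arrays these numbers were 590 and 210. Such rises therefore do not show larger differences between the sets.

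Calls for diabetes numbered 0 to 4 with 1 array left out, 4 of them without array DV710 of the diabetic vehicle group (smallest adjusted p 0.0498 by limma), and 0 to 0 for rosiglitazone. The median change of the 520 genes turned from -1.06 to 0.76 with a term for the sets and 0.82 without the low arrays in diabetes, and from 0.88 to -0.26 and -0.36 for rosiglitazone. That of the 41 in diabetes went from 0.95 to 0.21, 0.12 and, without arrays DV706 and DV707, 0.33. With 1 array left out these medians ran from -1.59 to -0.72 and from 0.57 to 1.42 for the 520, and from 0.70 to 1.16 and from -0.84 to -0.38 for the 41, in diabetes and for rosiglitazone. The exact p-values of set membership ran from 0.1373 to 0.5033 over 4 groups, 0.0915 to 0.5765 for diabetes and 0.5765 to 1.0 for rosiglitazone. Of 5719 differences of named genes under these alternatives 189 moved by more than 1 SD, and of 836 list medians 27 did. No named gene that was called apart turned its direction. With arrays left out this was fixed in advance, since the sets did not overlap for these genes. Of the list medians 40, in 10 of 27 lists, changed sign. The cause of these shifts was not tested.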
